A study of Mus musculus with 12 samples.

Results

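The genes described here are the aryl hydrocarbon receptor gene *Ahr*, its DNA-binding partner *Arnt* and 6 genes that AHR is known to regulate: *Ahrr*, *Tiparp*, *Cyp1a1*, *Cyp1b1*, *Aldh3a1* and *Il22*. They are 8 of 32051 genes in the deposited table, taken by gene symbol, and each symbol had 1 entry. The group was selected on a measured value, since the level of *Cyp1a1* with fatostatin had been seen before the genes were listed. The comparison of fatostatin with vehicle is therefore a description for the 8 genes, with no test, and so is any comparison of *Cyp1a1* across fatostatin. Other tests across fatostatin, of these members or of further pathway genes, are not independent of that selection.

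The study cultured naive CD4+ T cells from mouse spleens under Th9-polarizing conditions and sequenced RNA on day 4. Every group received stimulating antibodies against CD3 and CD28, IL-4 at 10 ng/mL, TGF-β at 1 ng/mL and antibodies against IL-12 and IFN-γ. The methods name C57BL/6J and OT-II mice as cell sources and do not say which served for these libraries. The groups received DMSO vehicle, EpA (endomelipeptide A, a cyclic lipopeptide from a fungal endophyte) at 10 µM, fatostatin (an inhibitor of SREBP, the transcription factors of sterol and fatty acid synthesis) at 5 µM, or EpA and fatostatin together. Each of the 4 groups had 3 libraries. No label ties a library to a separate mouse or culture, so p-values measure the spread between these libraries, which may be technical.

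AHR is a ligand-activated transcription factor that waits in the cytoplasm with the chaperone HSP90 and binds environmental pollutants, dietary indoles and products of tryptophan breakdown. Bound to ligand, it enters the nucleus, pairs with ARNT and binds xenobiotic response elements (XREs), whose core is GCGTG. The genes it induces include enzymes that break down its ligands and repressors that switch it off, and in T helper cells it is best known for its role in Th17 and Th22 cells, where it promotes IL-22.

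Reads on genes ranged from 36607303 to 44375791 per library. CD4 T cell markers summed to between 380 and 462 FPKM, and 20 of 21 markers of B cells, macrophages, dendritic cells, NK cells, neutrophils, mast cells with basophils, and hepatocytes averaged under 1 FPKM. The exception was *Cd68*, at 1.504 FPKM. The Th9 marker sum was 334 to 338 FPKM with DMSO, 905 to 937 with EpA, 351 to 359 with fatostatin and 1104 to 1161 with both compounds. Of its 5 genes 2 passed as higher and 2 as lower with EpA against DMSO. With EpA *Il9* went from 54.6 to 640 FPKM and *Batf* from 75.5 to 95.3, while *Irf4* went from 156 to 143 and *Gata3* from 50.4 to 46.4. These are bulk libraries, so fewer cells expressing a gene and less RNA per cell cannot be told apart.

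The sequences before the starts of *Cyp1a1*, *Cyp1b1*, *Ahrr* and *Tiparp* are shown because these tested members were lower in both groups that received fatostatin than in the matching groups without it. Each run holds the 250 bases before the RefSeq start on GRCm38.p6, read 5′ to 3′ on the strand of the gene. For *Cyp1a1* and *Tiparp* that start lies inside the longer span that GENCODE gives the gene. Capitals mark XRE cores (GCGTG, or CACGC where the match is on the opposite strand) and a sterol regulatory element of the form TCACNCCAC, a form of the sequence that SREBP recognizes.
Cyp1a1, chr9:57697363-57697612, plus strand: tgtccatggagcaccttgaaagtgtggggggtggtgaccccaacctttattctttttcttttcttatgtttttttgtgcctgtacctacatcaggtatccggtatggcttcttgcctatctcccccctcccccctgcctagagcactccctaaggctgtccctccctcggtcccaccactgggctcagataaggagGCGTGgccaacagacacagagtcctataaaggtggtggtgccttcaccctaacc
Cyp1b1, chr17:79715062-79715311, minus strand: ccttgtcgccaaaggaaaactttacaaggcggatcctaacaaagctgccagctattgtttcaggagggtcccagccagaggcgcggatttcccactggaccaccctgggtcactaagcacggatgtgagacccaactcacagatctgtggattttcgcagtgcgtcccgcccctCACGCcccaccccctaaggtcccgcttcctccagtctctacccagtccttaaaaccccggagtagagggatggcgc
Ahrr, chr13:74292332-74292581, minus strand: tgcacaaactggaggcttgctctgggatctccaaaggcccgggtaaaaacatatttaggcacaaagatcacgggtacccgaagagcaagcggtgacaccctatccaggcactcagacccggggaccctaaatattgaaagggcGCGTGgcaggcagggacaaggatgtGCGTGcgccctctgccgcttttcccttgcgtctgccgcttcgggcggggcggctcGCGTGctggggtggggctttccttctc
Tiparp, chr3:65528197-65528446, plus strand: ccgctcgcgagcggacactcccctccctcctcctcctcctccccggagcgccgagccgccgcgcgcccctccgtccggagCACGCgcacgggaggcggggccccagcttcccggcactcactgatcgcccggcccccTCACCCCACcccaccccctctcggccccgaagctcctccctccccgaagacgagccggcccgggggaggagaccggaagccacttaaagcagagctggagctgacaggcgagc

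*Cyp1a1* held 1 XRE core, beginning 54 bases before the start, and *Cyp1b1* held 1, beginning 76 bases before it on the opposite strand. *Ahrr* held 3, beginning 107, 82 and 27 bases before the start, and the last lay within the longer form TNGCGTG. *Tiparp* held 1 core on the opposite strand, beginning 170 bases before the start, and 1 sterol regulatory element beginning 113 bases before it. All motifs were searched on both strands, and the core is common: 28.2% of 32851 mouse promoters of the same length held it. The longer form was in 4.10% and the sterol regulatory element in 1.05%. *Arnt*, whose groups overlapped, also held 1 core, beginning 29 bases before the start, and *Il22* held none. A match describes the letters in this window and says nothing about binding.

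**Figure D1:**
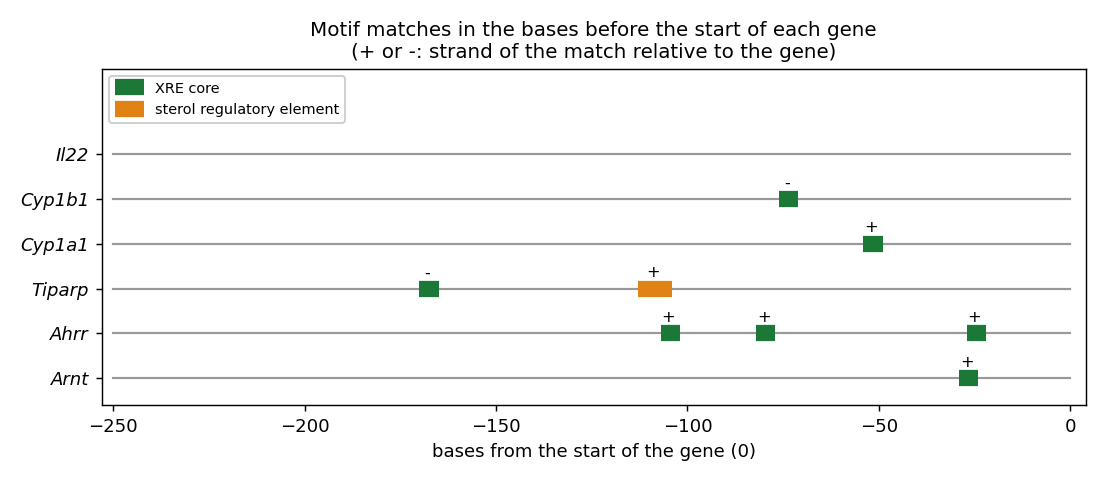
Positions of motif matches in the 250 bases before the start of the 6 members with a RefSeq promoter entry. The horizontal axis is the distance from the start in bases, each line is 1 gene, green boxes are XRE cores and the orange box is a sterol regulatory element. *Ahrr* held 3 XRE cores, *Arnt*, *Tiparp*, *Cyp1a1* and *Cyp1b1* 1 each and *Il22* none.

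*Ahr* (ENSMUSG00000019256, chr12:35497974-35535038, minus strand) was the member with the highest FPKM in every group, and its level differed little between groups. Positions are those of the GENCODE annotation on GRCm38. It measured 14.1, 14.4 and 14.4 FPKM with DMSO and 15.3, 15.3 and 15.6 with EpA. With fatostatin it measured 15.0, 14.9 and 14.6 FPKM, and with both compounds 15.8, 15.6 and 16.3. The EpA libraries all lay above the DMSO libraries, and the libraries with both compounds all lay above those with fatostatin alone. The fatostatin libraries also all lay above the DMSO libraries, and those with both compounds above those with EpA alone. On the log2(FPKM + 0.1) scale *Ahr* rose with EpA by 0.10 (SE 0.0238, limma adjusted p = 0.00708) and, in the presence of fatostatin, by 0.10 (SE 0.0238, limma adjusted p = 0.00824). Neither step reached 1.5-fold. Fatostatin left *Ahr* at 104% of its mean with DMSO and at 103% of its mean with EpA, the latter a log2 difference of 0.05 (SE 0.0238, limma adjusted p = 0.233).

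*Arnt* (ENSMUSG00000015522, chr3:95434388-95497240, plus strand), without which AHR cannot bind DNA, overlapped between groups in all 4 pairwise comparisons. It measured 12.17, 12.13 and 11.79 FPKM with DMSO, 11.48, 11.92 and 11.60 with EpA, 11.98, 11.88 and 11.78 with fatostatin and 11.96, 11.26 and 11.54 with both. None of its 3 tested differences passed. Its log2 difference with EpA was -0.04 (limma adjusted p = 0.301, 95% interval -0.10 to 0.01), and in the presence of fatostatin it was also -0.04 (limma adjusted p = 0.396, 95% interval -0.09 to 0.02).

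**Figure D2:**
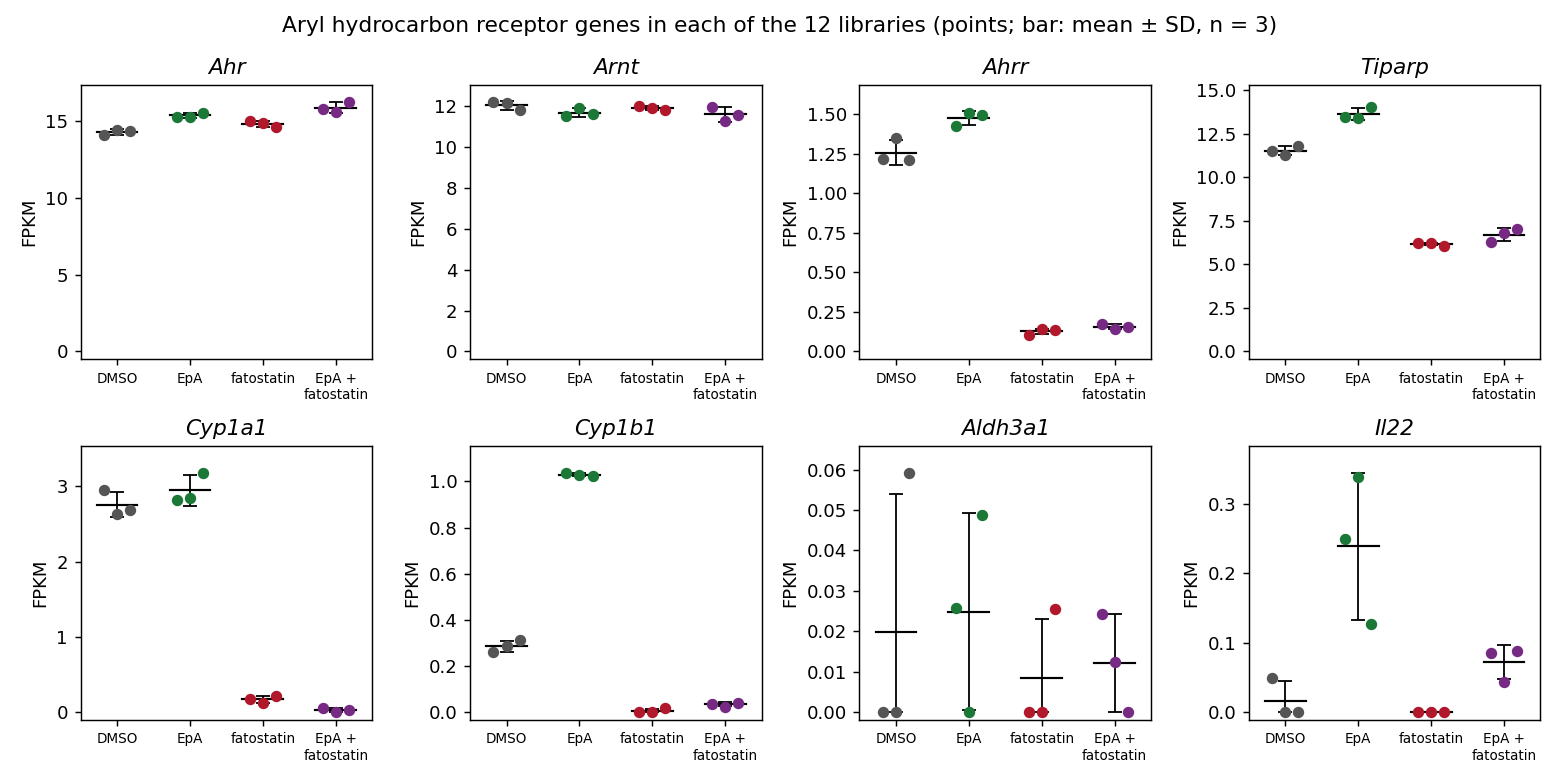
FPKM of the 8 members in each of the 12 libraries. Each panel is 1 gene on its own linear axis, points are libraries, and bars give the mean and SD of 3 libraries. *Ahr* stayed between 14.1 and 16.3 FPKM and *Arnt* between 11.3 and 12.2, *Ahrr*, *Cyp1a1* and *Cyp1b1* were near the bottom of their axes in all 6 libraries with fatostatin, and *Tiparp* was lower in those 6 than in the other 6.

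*Ahrr* (ENSMUSG00000021575, chr13:74211118-74292331, minus strand) encodes the AHR repressor, a target of AHR that competes with it for ARNT. It measured 1.22, 1.35 and 1.21 FPKM with DMSO, from 420 to 520 reads. With fatostatin it measured 0.105, 0.141 and 0.133 FPKM, from 44 to 53 reads, which was 10.1% of the DMSO mean. The highest library with fatostatin was far below the lowest with DMSO. On top of EpA the pattern was alike: *Ahrr* was 1.425, 1.504 and 1.496 FPKM with EpA and 0.172, 0.143 and 0.158 FPKM with both compounds, 10.7% of the EpA mean. *Ahrr* thus fell by 2.61 on the log2 scale (SE 0.115, limma adjusted p = 8.42e-08), a value from -3.22 to -1.10 over the alternatives. This p-value, like that of *Tiparp* for the same comparison, is not independent of the selection of the genes. *Ahrr* as a percent of *Ahr* in the same library was 8.78 ± 0.491 (SD, n = 3) with DMSO, 9.58 ± 0.256 with EpA, 0.853 ± 0.134 with fatostatin and 0.990 ± 0.0908 with both.

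The EpA libraries of *Ahrr* all lay above the DMSO libraries, at 117% of their mean, but the log2 difference of 0.22 (SE 0.115) did not pass (limma adjusted p = 0.199). It passed under 3 alternatives, among adjusted p-values from 0.0203 to 0.377: a pseudocount of 1 (adjusted p = 0.0360), no intensity trend (adjusted p = 0.0462) and limma voom on the recovered reads (adjusted p = 0.0203). In the presence of fatostatin the log2 difference with EpA was 0.19 (limma adjusted p = 0.257).

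*Tiparp* (ENSMUSG00000034640, chr3:65528410-65555518, plus strand) encodes an ADP-ribosyltransferase that modifies AHR and promotes its breakdown, and it had the highest FPKM of the 6 target genes among the members in every group. It measured 11.5, 11.3 and 11.8 FPKM with DMSO and 6.21, 6.22 and 6.07 with fatostatin, 53.6% of the DMSO mean. With EpA it measured 13.5, 13.4 and 14.0 FPKM, and with both compounds 6.280, 6.822 and 7.005, 49.1% of the EpA mean. The 6 libraries with fatostatin did not overlap the 6 without it. On top of EpA *Tiparp* fell by 1.02 on the log2 scale (SE 0.0402, limma adjusted p = 3.28e-08), and it rose with EpA alone by 0.24 (SE 0.0402, limma adjusted p = 0.000983), less than 1.5-fold. In the presence of fatostatin the rise with EpA was 0.12 (SE 0.0402), just past the threshold (limma adjusted p = 0.0493). That call was lost under 18 of 22 alternatives (adjusted p from 0.00565 to 0.173), and among the libraries left out in turn it held only without replicate 1 of EpA with fatostatin, where the log2 difference was 0.16.

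*Cyp1a1* (ENSMUSG00000032315, chr9:57687928-57703824, plus strand) encodes the cytochrome P450 enzyme most often used as the readout of AHR activity. It measured 2.95, 2.63 and 2.68 FPKM with DMSO, from 301, 300 and 325 reads. With fatostatin it measured 0.170, 0.126 and 0.213 FPKM, from 21, 14 and 24 reads, 6.15% of the DMSO mean (exact counting interval 4.67% to 8.04%). This is the value on which the group of genes was chosen, and on the log2(FPKM + 0.1) scale it was the lowest difference of 13733 genes, at -3.42. With EpA *Cyp1a1* measured 2.81, 2.84 and 3.18 FPKM. With both compounds it measured 0.0507, 0 and 0.0350 FPKM, from 6, 0 and 4 reads, 0.971% of the EpA mean (exact counting interval 0.465% to 1.80%). In these libraries 3 reads correspond to 0.0253 to 0.0263 FPKM, so the level with both compounds sits at the limit of what this depth can show. Counting intervals here come from the reads and cover counting error only. They may be too narrow, as mates of 1 fragment appear to have been counted separately, since 1025 to 1129 genes per library had 2 reads and 440 to 540 had 1.

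EpA and DMSO libraries overlapped for *Cyp1a1*, with a log2 difference of 0.09 (SE 0.165, limma adjusted p = 0.740, 95% interval -0.23 to 0.41). In the presence of fatostatin the libraries with EpA all lay below those without it: 10 reads in all against 59. The mean was 16.9% of the fatostatin mean, with an exact counting interval of 7.71% to 33.3%. The log2 difference was -1.08 and is given with no test, since it rests on the fatostatin libraries used to choose the genes and on a group under 0.1 FPKM. It was -0.18 with a pseudocount of 1, -2.55 with one of 0.01 and -3.01 with voom on the reads.

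*Cyp1b1* (ENSMUSG00000024087, chr17:79701537-79715061, minus strand), the P450 enzyme that AHR induces in many immune cells, had the highest log2 difference with EpA of the 6 tested members. It measured 0.262, 0.285 and 0.311 FPKM with DMSO, from 56, 68 and 79 reads, and 1.04, 1.03 and 1.02 FPKM with EpA, from 241, 239 and 253 reads. All EpA libraries exceeded every DMSO library, and stood at 358% to 363% of the DMSO mean. *Cyp1b1* rose with EpA by 1.55 on the log2 scale (SE 0.161, limma adjusted p = 3.36e-05), rank 33 from the highest of 13733 differences. Over the alternatives this value ranged from 0.66 to 1.84. As a percent of *Cyp1a1* in the same library it was 10.4 ± 1.40 (SD, n = 3) with DMSO and 35.1 ± 2.53 with EpA. The Th17 and Th22 marker sum was also higher in every EpA library (3.80 to 4.15 FPKM) than in any DMSO library (2.66 to 3.32 FPKM), and the Th1 marker sum was lower (6.37 to 7.97 against 12.9 to 13.4 FPKM). Of the 4 Th17 and Th22 genes 1 passed with EpA, and 3 averaged under 1 FPKM. With EpA *Il17f* went from 0.855 to 1.57 FPKM, *Ccr6* from 1.78 to 1.93 and *Il17a* from 0.251 to 0.462. The part of these sums in the rise of *Cyp1b1* was not tested.

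With fatostatin *Cyp1b1* was nearly undetected. The 3 libraries had 0, 0 and 4 reads, and the mean was 1.97% of the DMSO mean (exact counting interval 0.516% to 4.97%). With both compounds it had 9, 6 and 10 reads, or 0.0363, 0.0247 and 0.0418 FPKM, 3.33% of the EpA mean. The log2 difference on top of EpA was -3.07, rank 2 from the lowest of 13733 differences, and -0.97 with a pseudocount of 1 and -4.86 with voom on the reads. Each library with both compounds exceeded each with fatostatin alone, from 25 reads in all against 4, at a log2 difference of 0.35 that was 0.040 with a pseudocount of 1, 1.65 with one of 0.01 and 3.07 with voom on the reads. These differences are given with no test, since *Cyp1b1* was under 0.1 FPKM in every library with fatostatin and reached the minimum mean through the groups without it.

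**Figure D3:**
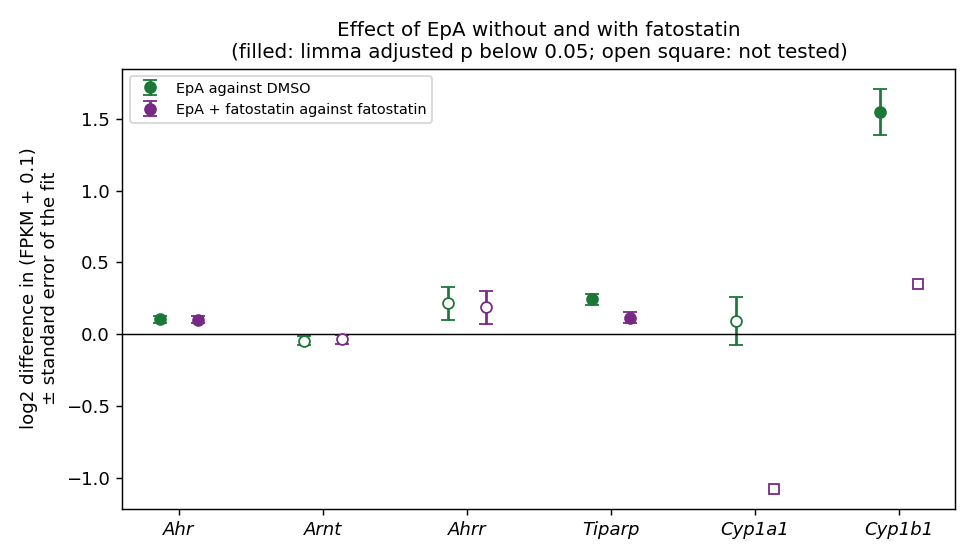
Effect of EpA on the 6 tested members without fatostatin (green) and with it (purple), as the log2 difference in FPKM + 0.1 with the standard error of the fit. Filled circles passed at an adjusted p below 0.05, and open squares, with no error bar, were not tested. *Cyp1b1* stood at 1.55 without fatostatin and 0.35 with it, and *Cyp1a1* at 0.09 and -1.08. The order for *Cyp1b1* depends on the scale. With voom on the reads its value with fatostatin was 3.07, while over the alternatives the value without it reached at most 1.84.

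*Aldh3a1* (ENSMUSG00000019102, chr11:61207537-61218421, plus strand), an aldehyde dehydrogenase of the AHR battery, was limited by reads. It had 0 to 5 reads in each library, 5 in all with DMSO, 6 with EpA, 2 with fatostatin and 3 with both. The groups overlapped, and no difference was detectable at this depth.

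*Il22* (ENSMUSG00000074695, chr10:118204942-118210047, plus strand), the cytokine by which T cells act on epithelium, was also limited by reads, and like *Aldh3a1* it fell under the minimum mean of 0.1 FPKM for testing. It had 2, 0 and 0 reads with DMSO and 11, 15 and 6 with EpA. It had 0 reads in each of the 3 libraries with fatostatin and 4, 2 and 4 with both compounds. The EpA libraries (0.249, 0.339 and 0.128 FPKM) did not overlap the DMSO libraries, and the libraries with both compounds lay between those with EpA alone and those with fatostatin alone. The EpA to DMSO ratio of means was 14.5, with an exact counting interval of 4.05 to 137.

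Reads on *Il22b*, a near copy of *Il22*, numbered 0 to 2 per library, and reads that fit both could have been split or dropped. The marker sums given beside *Cyp1b1* also moved with *Il22* for EpA against DMSO, and their part was not tested. With both compounds against EpA those sums overlapped.

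Of the 8 members 6 were tested across the table, all but *Aldh3a1* and *Il22*. With EpA 3 of 6 rose (*Ahr*, *Tiparp* and *Cyp1b1*), where 14.3% of all tested genes rose and 13.1% fell, and only *Cyp1b1* moved at least 1.5-fold. Beside the Th9, Th17 and Th22, and Th1 sums, those of CD4 T cells (400 to 406 FPKM with EpA against 454 to 462 with DMSO), CD8 T cells (7.85 to 8.57 against 8.71 to 9.79), B cells (0.535 to 0.813 against 0.890 to 1.03) and dendritic cells (0.507 to 0.580 against 0.407 to 0.503) did not overlap, and their part was not tested. Of the 5 CD4 T cell genes 1 passed as higher with EpA and 4 as lower. *Cd4* itself averaged 78.2 FPKM with DMSO, 86.8 with EpA, 84.3 with fatostatin and 90.5 with both. In the comparisons that involve the libraries with both compounds *Cyp1a1* and *Cyp1b1* were not tested, which left 4 members. With EpA in the presence of fatostatin 2 of the 4 rose (*Ahr* and *Tiparp*), where 16.2% of tested genes rose and 13.3% fell. Between these groups the sums of CD4 T cells (380 to 384 FPKM with both against 427 to 440 with fatostatin), Th1 (6.89 to 7.48 against 14.4 to 15.4), Th17 and Th22 (3.697 to 4.610 against 2.74 to 2.96) and NK cells (0.0611 to 0.0659 against 0.0169 to 0.0404) did not overlap, nor did the Th9 sum, and their part was not tested. With fatostatin on top of EpA 2 of the 4 fell (*Ahrr* and *Tiparp*), where 6.79% of all genes fell and 9.22% rose. Both fell by more than 1.5-fold, and this count is not independent of how the genes were chosen. The CD4 T cell marker sum was 380 to 384 FPKM with both compounds against 400 to 406 with EpA, the macrophage marker sum 1.71 to 2.70 against 1.21 to 1.69 and the B cell marker sum 1.07 to 1.18 against 0.535 to 0.813, and the Th9 sum did not overlap. Their part in the falls was not tested.

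Fatostatin against DMSO, in which 6.31% of tested genes were lower and 7.69% higher, gave the members log2 differences of 0.05 for *Ahr*, -0.02 for *Arnt*, -2.59 for *Ahrr*, -0.89 for *Tiparp*, -3.42 for *Cyp1a1* and -1.87 for *Cyp1b1*. Over the alternatives these values ranged from -6.09 to -0.35 for *Cyp1b1*, of whose 3 libraries 2 had no reads, from -4.01 to -1.68 for *Cyp1a1*, from -3.32 to -1.002 for *Ahrr* and from -0.91 to -0.80 for *Tiparp*. The CD4 T cell marker sum was 427 to 440 FPKM in these libraries against 454 to 462 with DMSO, and the macrophage marker sum was 1.52 to 2.32 against 1.18 to 1.36. The Th1 sum was 14.4 to 15.4 FPKM against 12.9 to 13.4 and the dendritic cell sum 0.518 to 0.598 against 0.407 to 0.503, and the Th9 sum did not overlap either. The part of these sums in the members' levels was not tested.

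The share left with fatostatin, without and with EpA, was 1.97% and 3.33% for *Cyp1b1*, 6.15% and 0.971% for *Cyp1a1*, 10.1% and 10.7% for *Ahrr* and 53.6% and 49.1% for *Tiparp*, while *Arnt* stood at 98.7% and 99.3%. From few reads, it was 0% and 30.2% for *Il22* and 42.9% and 49.1% for *Aldh3a1*. Per length, the members in the DMSO libraries ran from *Ahr* through *Arnt*, *Tiparp*, *Cyp1a1*, *Ahrr* and *Cyp1b1* to *Aldh3a1* and *Il22*, and of these neighbours only the last pair overlapped. With fatostatin the libraries of *Cyp1a1* overlapped those of *Ahrr*, and *Aldh3a1*, *Cyp1b1* and *Il22* overlapped in turn.

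**Figure D4:**
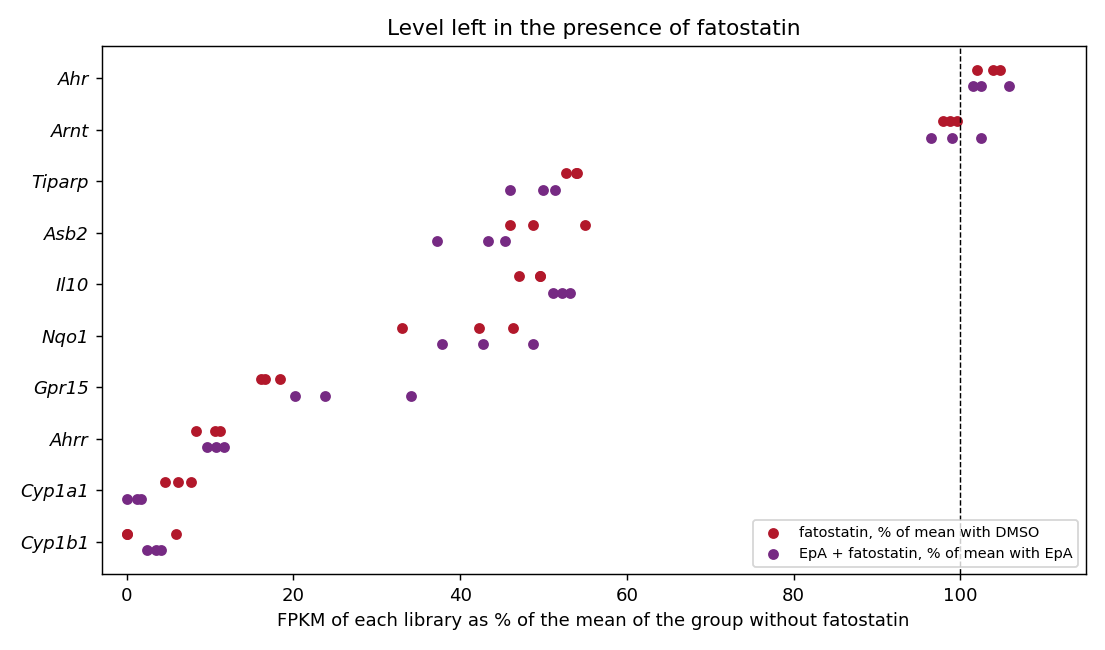
FPKM of each library with fatostatin as a percent of the mean of the matching group without it, for 6 members and 4 other genes of the pathway lists. Those 4 (*Gpr15*, *Nqo1*, *Il10* and *Asb2*) all fell with fatostatin. Of the other named list genes, left out here, *Maf* averaged 71.1% without EpA and 73.3% with it. *Il21* averaged 90.5% and 123%, *Entpd1* 95.8% and 104%, *Haao* 96.0% and 128%, *Scin* 114% and 139% and *Slc7a8* 133% and 201%. Red points are fatostatin against DMSO and purple points both compounds against EpA, 3 libraries each, and the dashed line marks 100%. *Cyp1b1*, *Cyp1a1* and *Ahrr* lay at or under 11.7%, *Tiparp* between 46.0% and 54.0%, and *Ahr* and *Arnt* between 96.5% and 106%.

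Whether EpA acted differently with and without fatostatin was tested by the difference between its effects, which 0.0437% of tested genes (6 of 13733, with 1083 at an unadjusted p under 0.05) passed. Of the 4 members tested for it 0 passed by limma on FPKM and 0 by voom on the reads, and 1 (*Tiparp*) had an unadjusted p under 0.05 in the former. *Tiparp* had a log2 difference between effects of -0.13 (limma adjusted p = 0.626). For *Cyp1b1* the value was -1.20 and for *Cyp1a1* -1.17, both with no test. The direction for *Cyp1b1* depended on the scale. With voom on the reads it rose with EpA by 3.07 in the presence of fatostatin, and by at most 1.84 without it over the alternatives. On the ratio scale the mean of *Cyp1b1* with EpA was 359.8% of that with DMSO and, in the presence of fatostatin, 607.7% of that without EpA, the latter with an exact counting interval of 215% to 2465%.

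The other genes of the pathway came from 5 lists of 45 genes, of which 35 were tested. With fatostatin against DMSO 10 of the 35 fell and 1 rose, where 6.31% of all tested genes fell and 7.69% rose. With fatostatin on top of EpA 10 fell and 3 rose, where 6.79% fell and 9.22% rose. With EpA against DMSO 12 rose and 6 fell, where 14.3% rose and 13.1% fell, and in the presence of fatostatin 11 rose and 2 fell, where 16.2% rose and 13.3% fell. The counts of the single lists below read against the same shares. The lists were drawn up with earlier results of these data known, so counts and p-values across fatostatin are not independent of that choice. On the log2 scale the median differences of the 35 genes were 0.02, -0.04, 0.02 and 0.09 for EpA, fatostatin, fatostatin on top of EpA and EpA on top of fatostatin, against 0.0023, 0.0053, 0.015 and 0.012 over all tested genes. Genes named below only to spell out a count were chosen after their values were seen.

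Of 5 tested genes of the AHR complex, its chaperones and its partners, 2 fell with fatostatin (*Ptges3* and *Src*), at a median log2 difference of -0.014, and 2 fell on top of EpA (*Hsp90aa1*, at -0.078 with limma adjusted p = 0.00502, and *Src*), at a median of -0.051. With EpA 3 rose with and without fatostatin (*Ptges3*, *Hsp90aa1* and *Hsp90ab1*), at medians of 0.15 and 0.14. *Hsp90aa1*, the inducible HSP90 that holds AHR in the cytoplasm, rose by 0.43 with EpA (SE 0.0153, limma adjusted p = 9.03e-09). Of 8 genes for AHR turnover and coactivation 0 passed with fatostatin by limma on FPKM (0 at an unadjusted p under 0.05), and 0 by voom on the reads (2 at an unadjusted p under 0.05). On top of EpA 0 passed by either, with 2 at an unadjusted p under 0.05 in each. With EpA against DMSO 2 fell (*Ncoa2* and *Crebbp*).

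Of 7 other enzymes and regulators of the xenobiotic battery only *Nqo1* and *Nfe2l2* reached the minimum mean, and both fell with fatostatin with and without EpA. *Nqo1*, a quinone reductase induced by AHR and by NRF2, measured 3.76 ± 0.220 FPKM (SD, n = 3) with DMSO and 1.52 ± 0.255 with fatostatin. It fell by 1.26 on the log2 scale (SE 0.116, limma adjusted p = 2.50e-05), and on top of EpA the difference was -1.17 (SE 0.116, limma adjusted p = 4.03e-05). Like *Cyp1a1* it did not pass with EpA alone, at a log2 difference of 0.08 (limma adjusted p = 0.661).

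Of 10 tested immune genes known as AHR targets, 4 fell with fatostatin (*Il10*, *Maf*, *Gpr15* and *Asb2*), and the same 4 fell on top of EpA while *Il21* and *Scin* rose. *Gpr15*, which guides T cells to the colon, was the deepest: 6.57 ± 0.446 FPKM with DMSO and 1.12 ± 0.0777 with fatostatin, 17.0% of the DMSO mean (log2 difference -2.45, SE 0.143, limma adjusted p = 5.93e-07). On top of EpA it fell to 25.99% of the EpA mean, from 9.70 ± 0.394 to 2.52 ± 0.701 FPKM (limma adjusted p = 4.52e-06). *Il10*, the anti-inflammatory cytokine, fell from 110 ± 0.875 FPKM to 53.7 ± 1.62 (log2 difference -1.04, SE 0.0237, limma adjusted p = 2.89e-10). *Asb2*, a substrate adaptor of a ubiquitin ligase, fell to 49.9% of its DMSO mean (limma adjusted p = 0.000173). *Maf*, which encodes the transcription factor c-MAF, fell from 16.7 ± 0.152 to 11.9 ± 0.179 FPKM (log2 difference -0.49, SE 0.0278, limma adjusted p = 5.12e-07).

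With EpA 5 of the 10 immune genes rose, with and without fatostatin (*Il10*, *Il21*, *Gpr15*, *Scin* and *Asb2*), and 1 fell (*Entpd1*). *Il21*, a cytokine for follicular help, rose from 1.27 ± 0.108 to 3.28 ± 0.226 FPKM (log2 difference 1.31, SE 0.0855, limma adjusted p = 1.13e-06), and *Scin*, which encodes an actin-severing protein, from 0.667 ± 0.103 to 1.75 ± 0.216 FPKM (limma adjusted p = 7.63e-06). *Gpr15* rose by 0.56 (limma adjusted p = 0.0137), a call lost without DMSO replicate 1 (0.50, adjusted p = 0.0513). *Entpd1*, which encodes the ectonucleotidase CD39, fell from 2.46 ± 0.0991 to 0.911 ± 0.00317 FPKM (limma adjusted p = 4.27e-06).

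*Il21* and *Scin* did not pass with fatostatin against DMSO. *Il21* was at 90.5% of its DMSO mean (limma adjusted p = 0.362) and *Scin* at 114% (limma adjusted p = 0.351). On top of EpA *Il21* rose by 0.29 (limma adjusted p = 0.0411) and *Scin* by 0.46 (limma adjusted p = 0.0130). The call for *Scin* was lost without EpA replicate 2 (0.40, adjusted p = 0.0549). The call for *Il21* was lost with no filter (adjusted p = 0.0703) and when any 1 of 8 single libraries was left out (DMSO replicate 2, fatostatin replicate 3, the 3 of EpA and the 3 of both compounds; log2 difference 0.24 to 0.33, adjusted p of 0.0507 to 0.143).

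**Figure D5:**
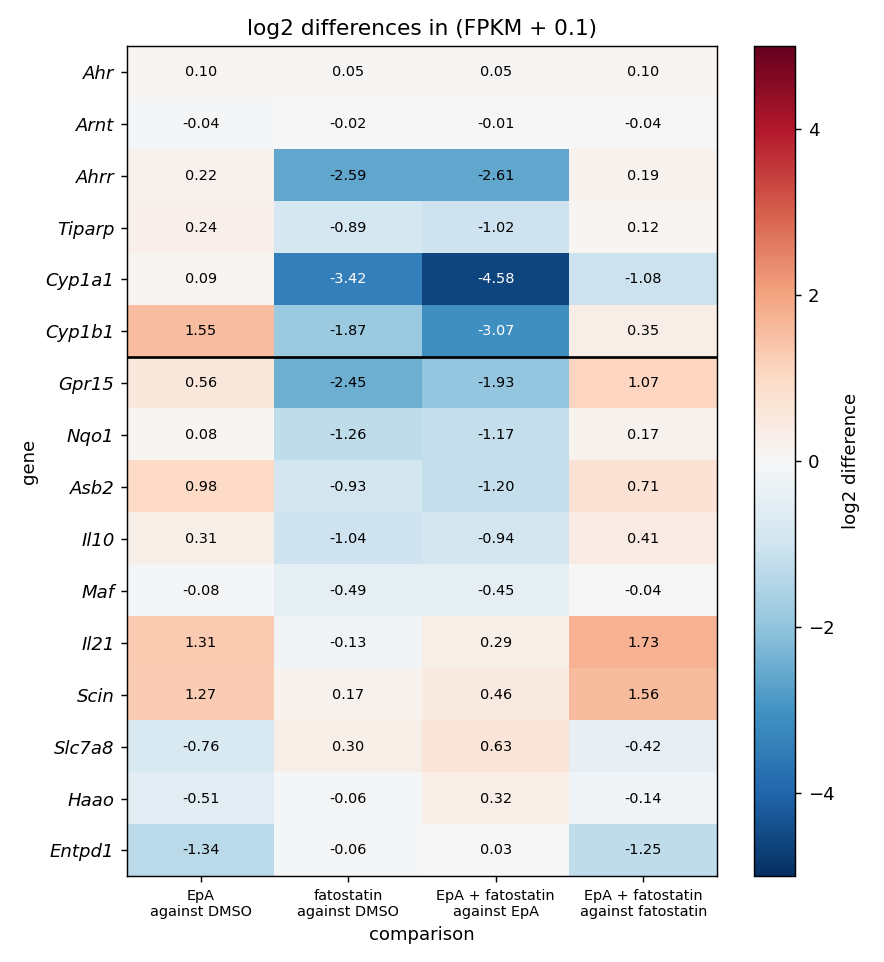
Log2 differences in FPKM + 0.1 in the 4 pairwise comparisons for the 6 tested members (above the line) and 10 other genes of the pathway lists (below it). Red is higher and blue lower in the group named first. *Ahrr*, *Cyp1a1*, *Cyp1b1* and *Gpr15* lay between -4.58 and -1.87 in both columns that add fatostatin, and *Cyp1b1*, *Il21* and *Scin* between 1.27 and 1.55 with EpA against DMSO.

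Of 10 tested genes for tryptophan uptake and breakdown, a source of AHR ligands inside the body, 2 fell with fatostatin (*Slc7a5* and *Slc3a2*, the subunits of an amino acid transporter) and 1 rose (*Kynu*, kynureninase, by 0.30, limma adjusted p = 0.000124). The same 3 changed the same way on top of EpA, and all 3 rose with EpA with and without fatostatin. With EpA against DMSO 3 fell (*Haao*, *Slc7a8* and *Wars*), and in the presence of fatostatin 0 did by limma on FPKM (0 at an unadjusted p under 0.05) and 0 by voom on the reads (1 at an unadjusted p under 0.05). *Haao*, an enzyme later in the kynurenine pathway, changed with EpA by -0.51 (limma adjusted p = 0.00811) and, in the presence of fatostatin, by -0.14 (limma adjusted p = 0.446). *Slc7a8*, another amino acid transporter, changed with EpA by -0.76 (limma adjusted p = 0.0401) from 142 reads in the 3 DMSO libraries to 64 in the EpA libraries, and that call was lost when any 1 of 8 single libraries was left out (the 3 of DMSO, EpA replicates 1 and 2, fatostatin replicates 2 and 3 and replicate 1 of both; log2 difference -0.83 to -0.57, adjusted p of 0.0506 to 0.142). In the presence of fatostatin the value for *Slc7a8* was -0.42 (limma adjusted p = 0.231). The call without it was also lost with a pseudocount of 1, with no filter and with only the groups compared in the fit (adjusted p of 0.0513 to 0.0868).

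The tested genes whose log2 levels over the 12 libraries were most like those of *Cyp1a1* were *Stt3b* (Pearson r = 0.993), *Wdr1* (0.989), *Cnpy3* (0.988), *Nusap1* (0.987) and *Cd200r1* (0.987). For *Ahr* they were *Zfp711* (0.964), *Traf4* (0.963), *Tgm2* (0.959), *Slc15a3* (0.958) and *Irak1bp1* (0.956). The libraries fall into treatment groups that share their compounds, so these values describe the pattern of group means.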

How the data were processed

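RNA from 12 libraries (4 groups of 3) was measured. Per the methods, the authors used Trim Galore for trimming, HISAT2 for alignment to GRCm38 and featureCounts for gene counts. The deposited table holds those counts as FPKM, that is, divided by gene length and library size. The annotation release and strand setting are not given in the sources used here. The table held 32352 lines for 32051 genes, the 301 repeats having the same values, and 0 value columns were left unused.

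Reads per gene and library were recovered from FPKM and exon lengths of GENCODE M21 (length for 99.9% of genes). Of values up to 1000 reads, 98.3% to 98.5% per library came out whole within 0.05. They served for read numbers, for exact 95% Clopper-Pearson counting intervals and for limma voom as an alternative.

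The 13733 genes whose mean over the 12 libraries reached 0.1 FPKM entered limma 3.58.1 in R 4.3.3 on log2(FPKM + 0.1), with an intensity trend, 4 group means in 1 fit, two-sided, and Benjamini-Hochberg adjustment over all of them. This scale understates the change of low genes. Members with a compared group under 0.1 FPKM are described with no test, a limit set after seeing the data. Passing is an adjusted p below 0.05, and whether a change reached 1.5-fold is stated. An exact permutation test of 3 against 3 cannot go below p = 0.1 and was not used. The script was tested on simulated data.

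The members and gene lists were chosen with earlier results of these data known. Some genes of the lists are not reported here and enter no list count or marker sum. Named beside the members were the 10 other list genes with the largest absolute change among those passing in any pairwise comparison, and the 5 genes most correlated with *Cyp1a1* and with *Ahr*. Promoters came from RefSeq (6 of 8 members matched). Alternatives were the pseudocount, the filter, TPM or median-of-ratios scaling, the groups in the fit, no trend, a replicate block, voom, a 1.5-fold minimum and leaving out each library.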

Additional observations from a re-analysis of the deposited data

How the results depend on the processing

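Requiring a change of at least 1.5-fold as well as the adjusted p reduced the genes passing to 464 of 3759 for EpA against DMSO, to 255 of 1922 for fatostatin against DMSO, to 273 of 2199 for both compounds against EpA and to 515 of 4051 for both against fatostatin. Members passing went from 3 to 1 for EpA against DMSO and from 2 to 0 for both against fatostatin under the same requirement. For both against fatostatin they went from 2 to 1 with a pseudocount of 1, no filter, median-of-ratios scaling, only the groups compared, no intensity trend, a replicate block or voom, and were 1 to 2 without single libraries, as *Tiparp* lost its call. With a minimum mean of 1 FPKM members passing for both against EpA went from 2 to 1, since fewer members were tested. The difference between the effects of EpA passed for 6 genes and for 10 with a pseudocount of 0.01, 1 after rescaling to TPM, 19 with voom on the reads and 0 to 2 without single libraries, so no statement on which genes differ rests on it. The cause was not tested. *Arnt* for both against EpA ranged from -0.033 to 0.010 without single libraries, turning sign without replicate 2 of EpA or of both compounds.

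Replicate numbers are shared between groups, and same-numbered libraries deviated together with correlations of only -0.047 to 0.074, against -0.086 to 0.049 for different numbers. A library correlated best with its own number in 13 of 36 checks, so the numbers were not taken as pairs. With a replicate block 0 genes passed for the difference between effects, *Tiparp* for both against fatostatin had an adjusted p of 0.0524 and *Il21* for both against EpA one of 0.0600. Depth limits *Aldh3a1* and *Il22* in every group and *Cyp1a1* and *Cyp1b1* with fatostatin. The pseudocount moves the size of their log2 differences and of that of *Ahrr*: *Cyp1a1* for fatostatin against DMSO was -1.68 with a pseudocount of 1 and -3.97 with 0.01. No test restricted to the groups compared could be made for the difference between effects.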
